A study of Mus musculus with 21 samples.

Results

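Gene expression was compared between AGF+ dendritic cells (DCs) of AireKO and KI/+ lymph nodes, using the 6 libraries whose labels give this tissue, this sort and either genotype, of 21 libraries in the series. The AireKO group (3 libraries) has the genotype AGF-KI/-, and the KI/+ group (3 libraries) has AGF-KI/+. Both groups thus carry the AGF-KI reporter allele of Aire once, and the other allele is - in AireKO mice and + in KI/+ mice. The mice were C57BL/6, labelled male and 6 weeks old. DCs were released from lymph nodes by enzymes, gated as CD45+CD11c+MHCII+ and sorted as AGF+, and the replicates are labelled as independent and biological. What each allele lacks of Aire, and whether the reporter allele gives a working protein, is not stated in the labels or headers. The sort reads out the reporter that the Aire locus drives, so each group holds cells with an active locus and not all lymph node DCs.

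Aire, the autoimmune regulator, is a nuclear protein best known from medullary epithelial cells of the thymus. There it lets tissue-restricted antigens, genes normally confined to single peripheral organs, be transcribed and shown to developing T cells, and its loss causes autoimmunity in mouse and human. Aire is also transcribed in some DC-like antigen-presenting cells of lymph nodes, many of which carry the maturation receptor CCR7.

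The 6 libraries held 4263663 to 6055097 counts each, so a level of 1 CPM (count scaled to effective library size, the usual RNA-seq unit) rested on 4.56 to 6.56 counts, and a count of 0 allowed at most 0.458 to 0.657 CPM, for counting error only. Both libraries numbered 2 went against their male label. Xist, transcribed from the inactive X chromosome, stood at 0.503, 4008 and 1.03 CPM in the AireKO libraries and at 0.950, 3838 and 1.10 CPM in the KI/+ libraries. Summed over 4 genes of the Y chromosome (Kdm5d, Uty, Ddx3y and Eif2s3y), the level was 498, 0 and 418 CPM in AireKO and 375, 0.610 and 402 CPM in KI/+. Each of the 7 groups of the series holds 1 such library, numbered 2, so the replicate number used as a block below also separates them. Fits without them leave out the libraries numbered 2 of all 4 lymph node groups, and their values are given where they move a result. A gate marker, Itgax, and a DC gene outside the gate, Zbtb46, were chosen after the values were seen. They describe the sorted cells and do not check the whole gate. Itgax, which encodes CD11c, stood at 224, 165 and 142 CPM in AireKO and at 208, 207 and 164 CPM in KI/+, and Zbtb46, a transcription factor of conventional DCs, at 292, 308 and 303 CPM in AireKO and at 362, 285 and 341 CPM in KI/+.

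Whether loss of Aire alters the AGF+ cells was asked by testing 15884 genes, first without the replicate number as a block. Aire fell and its overlapping neighbour Dnmt3l rose in AireKO cells, and these 2 genes (0.0126% of those tested) were the only ones with an adjusted p under 0.05 in edgeR's quasi-likelihood test with Benjamini-Hochberg adjustment. At an unadjusted p under 0.05 stood 583 genes (3.67%), 189 higher (1.19%) and 394 lower (2.48%) in AireKO cells. Genes named from these, other than Aire and Dnmt3l, did not pass adjustment and are described by their values. The AireKO libraries lay all above the KI/+ libraries for 842 genes (5.3%) and all below them for 796 (5.01%). Groups without overlap were thus common among the genes tested, and where this is stated below it is a description only. The median log2 fold change over all genes was -0.01, with 48.2% of genes above 0.

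**Figure D1:**
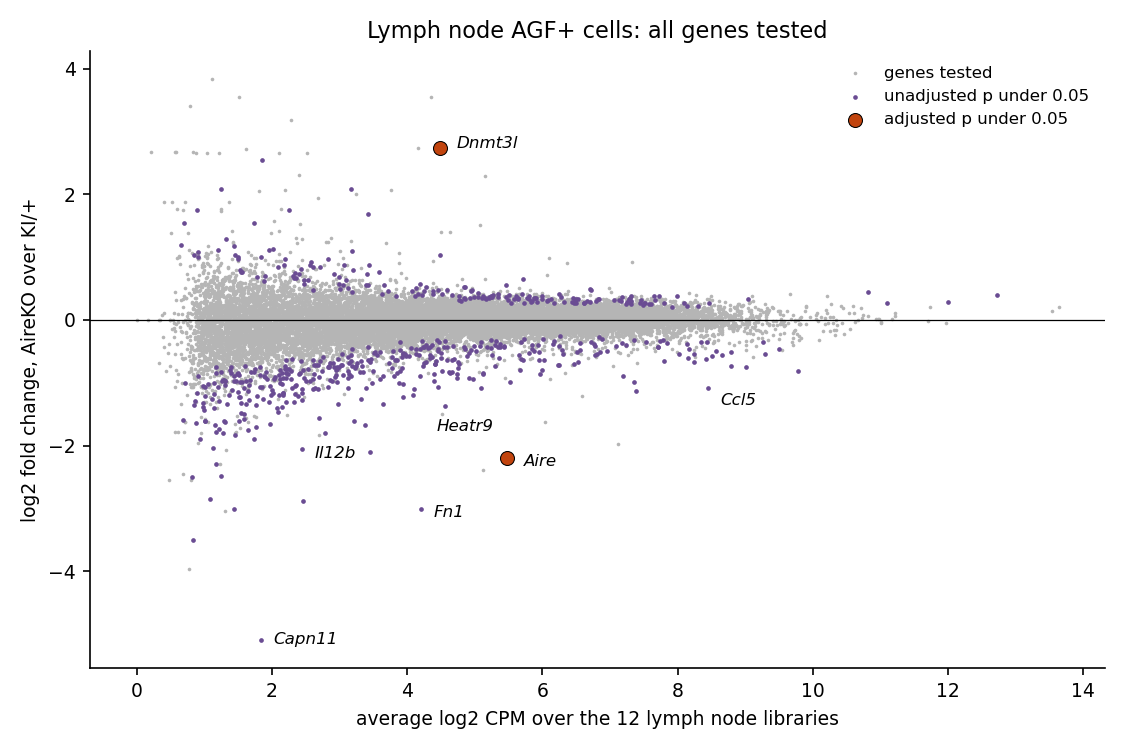
Log2 fold change of AireKO over KI/+ AGF+ cells (vertical) against the average log2 CPM (horizontal) for the 15884 genes tested. Aire and Dnmt3l passed the adjusted threshold, with log2 fold changes of -2.19 and 2.73; the other labelled genes did not.

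Aire (ENSMUSG00000000731) lies on the minus strand at chr10:78030022-78043610 (GRCm38). It stood at 22.8, 26.6 and 26.3 CPM in AireKO cells (mean 25.2 ± 2.10, SD, n = 3), against 132, 99.0 and 112 CPM in KI/+ cells (114 ± 16.7, SD, n = 3). Every AireKO library was below every KI/+ library. The log2 fold change was -2.19 ± 0.15 (SE; 95% interval -2.51 to -1.88; edgeR adjusted p = 8.57e-06). Between 128 and 136 counts per AireKO library were still assigned to Aire, against 509 to 834 counts per KI/+ library.

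Dnmt3l (ENSMUSG00000000730) encodes a catalytically inactive partner of the de novo DNA methyltransferases, known from germ cells. It lies on the plus strand at chr10:78041947-78063622 and overlaps the 5′ end of Aire head to head. It stood at 58.7, 52.0 and 70.7 CPM in AireKO cells (60.5 ± 9.50, SD, n = 3), against 9.18, 8.24 and 9.64 CPM in KI/+ cells (9.02 ± 0.715, SD, n = 3), without overlap between the groups. The log2 fold change was 2.73 ± 0.23 (95% interval 2.23 to 3.23; edgeR adjusted p = 1.11e-04). Per kilobase of exon, Aire averaged 6.60 RPKM in AireKO and 29.8 RPKM in KI/+ cells, and Dnmt3l averaged 20.2 RPKM in AireKO and 3.02 RPKM in KI/+ cells, so the order of these 2 genes by level was opposite in the genotypes. Without the libraries numbered 2 the log2 fold changes were -2.33 ± 0.19 for Aire and 2.76 ± 0.23 for Dnmt3l, each with an edgeR adjusted p of 0.00316.

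**Figure D2:**
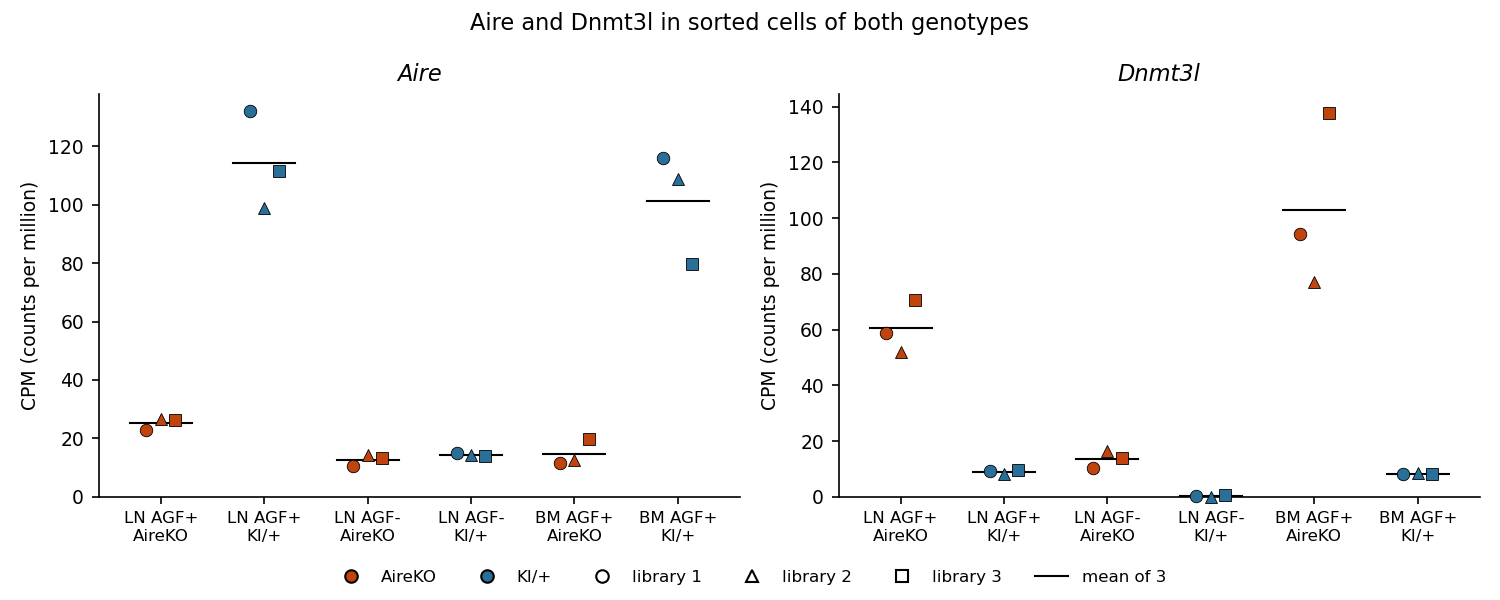
CPM of Aire and Dnmt3l in each library (points; symbol by library number), with the mean of 3 libraries as a line, for AireKO and KI/+ cells of lymph node (LN) AGF+ and AGF- and bone marrow (BM) AGF+ sorts. In lymph node AGF+ cells Aire sits at 22.8 to 26.6 CPM in AireKO and at 99.0 to 132 CPM in KI/+, and Dnmt3l at 52.0 to 70.7 CPM in AireKO and at 8.24 to 9.64 CPM in KI/+.

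The bases before the start of Aire and before a RefSeq start of Dnmt3l, which lies inside the gene span given above, are printed because the 2 called genes meet there. Both windows come from RefSeq on GRCm38.p6 and run 5′ to 3′ on the strand of their gene. In the Aire window, chr10:78043611-78043860 on the minus strand, capitals mark its 1 forward match to TATAAA, the core of a TATA box. In the Dnmt3l window, chr10:78042037-78042286 on the plus strand, capitals mark 67 bases, chr10:78042061-78042127, that GENCODE vM21 places in exons of both genes.
Aire: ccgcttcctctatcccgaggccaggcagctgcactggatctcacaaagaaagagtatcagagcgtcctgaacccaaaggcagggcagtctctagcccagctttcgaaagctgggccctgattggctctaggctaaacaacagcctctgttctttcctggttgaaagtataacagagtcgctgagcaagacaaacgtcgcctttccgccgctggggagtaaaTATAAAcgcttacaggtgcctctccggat
Dnmt3l: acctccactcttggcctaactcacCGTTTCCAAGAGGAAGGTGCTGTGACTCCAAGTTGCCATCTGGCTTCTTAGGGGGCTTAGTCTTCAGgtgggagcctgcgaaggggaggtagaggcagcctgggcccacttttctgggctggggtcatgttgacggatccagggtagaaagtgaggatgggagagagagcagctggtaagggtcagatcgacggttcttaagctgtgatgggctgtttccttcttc
The shared bases are coding sequence of Aire and belong to a non-coding transcript of Dnmt3l. They make up 1.75% of the exon bases of Aire and 2.24% of those of Dnmt3l. The labels do not state whether counting used the strand, so reads from these bases, or from unspliced RNA across the overlap, cannot be assigned to 1 of the genes from the counts. TATAAA occurs on either strand in 12.4% of 32817 RefSeq windows of this length, and on the forward strand in 7.60%. It was not in the printed Dnmt3l window or in the windows before the other 2 Dnmt3l starts, at chr10:78049592-78049841 and chr10:78055085-78055334.

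The genes around Aire on chromosome 10 were described from a list of 20, of which 18 were tested. Aire and Dnmt3l were the called members. Of the 18, 13 were negative, with a median log2 fold change of -0.20 against -0.01 over all genes. Icosl, the ligand of the T cell receptor ICOS, lies next to Dnmt3l at chr10:78069302-78083913 on the plus strand. It stood at 846, 864 and 895 CPM in AireKO cells and at 1457, 926 and 1192 CPM in KI/+ cells. The groups did not overlap, with KI/+ library 2 the nearest to AireKO, and the log2 fold change of -0.47 ± 0.22 had an unadjusted p of 0.0497. Further members were Trpm2, a calcium channel, at a log2 fold change of -0.42, Pfkl, a glycolytic enzyme, at -0.21, Agpat3, an acyltransferase, at -0.19 and Itgb2, the beta chain of leukocyte integrins, at -0.01.

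Beside Dnmt3l, the machinery that writes, reads and removes DNA methylation did not pass the test. Of 17 listed genes 16 were tested and 1, Dnmt3l, was called; the median log2 fold change was -0.03. The others lay between -0.30 for Uhrf1, which guides the maintenance methyltransferase, and 0.30 for Mbd2, a reader of methylated DNA, and each of these 15 had a 95% interval within 2-fold. Dnmt3a, a de novo enzyme that Dnmt3l binds in germ cells, stood at 338, 336 and 309 CPM in AireKO and at 366, 335 and 336 CPM in KI/+ (log2 fold change -0.09). Dnmt3b, the other such enzyme, was low, at 7.55, 7.86 and 7.81 CPM in AireKO and at 9.02, 10.2 and 7.23 CPM in KI/+ (-0.21). Dnmt1, the maintenance enzyme, stood at 140, 134 and 149 CPM in AireKO and at 176, 117 and 149 CPM in KI/+ (-0.08).

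Of the tissue-restricted antigens, few could be tested at this depth. The list held 60 genes, mostly known as antigens of single organs; 27 had no count in any of the 6 libraries, among them the insulin genes Ins1 and Ins2, Alb, the serum albumin, and Mog, a myelin protein, and 8 were abundant enough to be tested. None of the 8 was called (0 also at an unadjusted p under 0.05), with a median log2 fold change of -0.12 (-0.23 without AireKO library 1, -0.07 without AireKO library 2) and a range of -0.40 to 0.20. Ttn, the muscle protein titin, stood at 6107, 7007 and 5862 CPM in AireKO and at 4006, 6438 and 5907 CPM in KI/+, with overlapping groups (0.20 ± 0.20). Mbp, whose products include myelin basic protein, stood at 146, 159 and 186 CPM in AireKO and at 206, 159 and 198 CPM in KI/+ (-0.21 ± 0.12). Tg, thyroglobulin, had 3.52, 4.23 and 4.52 CPM in AireKO and 6.01, 5.19 and 4.60 CPM in KI/+ (-0.39 ± 0.30). The confidence interval lay within 2-fold for 6 of the 8 tested antigens. The proteins that bind Aire or act with it, 27 genes that were all tested, had 0 calls and 0 genes at an unadjusted p under 0.05, with a median of 0.05 and a range of -0.48 to 0.40. For 26 of the 27 the 95% interval lay within 2-fold, among them Ep300, a histone acetyltransferase (0.14), Prkdc, the DNA-dependent protein kinase (0.23), and Top1, a topoisomerase (0.24).

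Fn1, which encodes the matrix protein fibronectin (chr1:71585520-71653200, minus strand), was next in order of p. It stood at 0.503, 1.01 and 0.822 CPM in AireKO cells, from 3, 5 and 4 counts, against 5.38, 4.73 and 8.98 CPM in KI/+ cells, from 34, 31 and 41 counts. The groups did not overlap. The log2 fold change was -3.01 ± 0.45 (95% interval -3.98 to -2.03; edgeR adjusted p = 0.0607). With the replicate number as a block, 4 genes were called (0.0252%), Fn1 (edgeR adjusted p = 0.0198), Capn11, Aire and Dnmt3l, and DESeq2 called 4 as well (0.0252%), Fn1 (DESeq2 adjusted p = 3.38e-05), Il12b, Aire and Dnmt3l. The block left 1098 genes at an unadjusted p under 0.05 (6.91%). Voom called 2 with and without the block (0.0126%), DESeq2 with the block 9 (0.0567%), and edgeR without a filter on low counts 97 of 32883 (0.295%). In voom the adjusted p of Fn1 was 0.117, and 0.105 with the block. With all 21 libraries in the fit its edgeR adjusted p was 0.966, without the libraries numbered 2 it was 0.201, and with libraries left out in turn it ranged from 0.0392 to 0.809.

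Il12b, the p40 subunit shared by interleukins 12 and 23 (chr11:44400063-44414033, plus strand), stood at 2.01, 1.41 and 2.06 CPM in AireKO cells, against 9.02, 4.27 and 9.86 CPM in KI/+ cells. These values rest on 7 to 12 counts per AireKO library and 28 to 57 counts per KI/+ library, and the groups did not overlap. The log2 fold change was -2.06 ± 0.39 (95% interval -2.89 to -1.23), with an adjusted p of 0.430 in edgeR, of 0.283 in edgeR without the libraries numbered 2, and of 0.0223 in DESeq2. Capn11, calpain 11, a cysteine protease known from testis, had 2, 0 and 1 counts in AireKO libraries and 51, 1 and 63 counts in KI/+ libraries. Over the summed libraries AireKO was 34.7-fold lower, with a counting interval of 11.6 to 171, but KI/+ library 2 was at the level of the AireKO libraries. Without the block its edgeR adjusted p was 0.967, and with the block it was 7.08e-04, or 0.0840 with the block in voom. Without the libraries numbered 2 its edgeR adjusted p was 0.0531, and 0.00434 with the block. KI/+ library 2 was at the AireKO level in AGF- cells as well, where Capn11 had 0, 0 and 1 counts in AireKO and 25, 0 and 43 counts in KI/+.

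**Figure D3:**
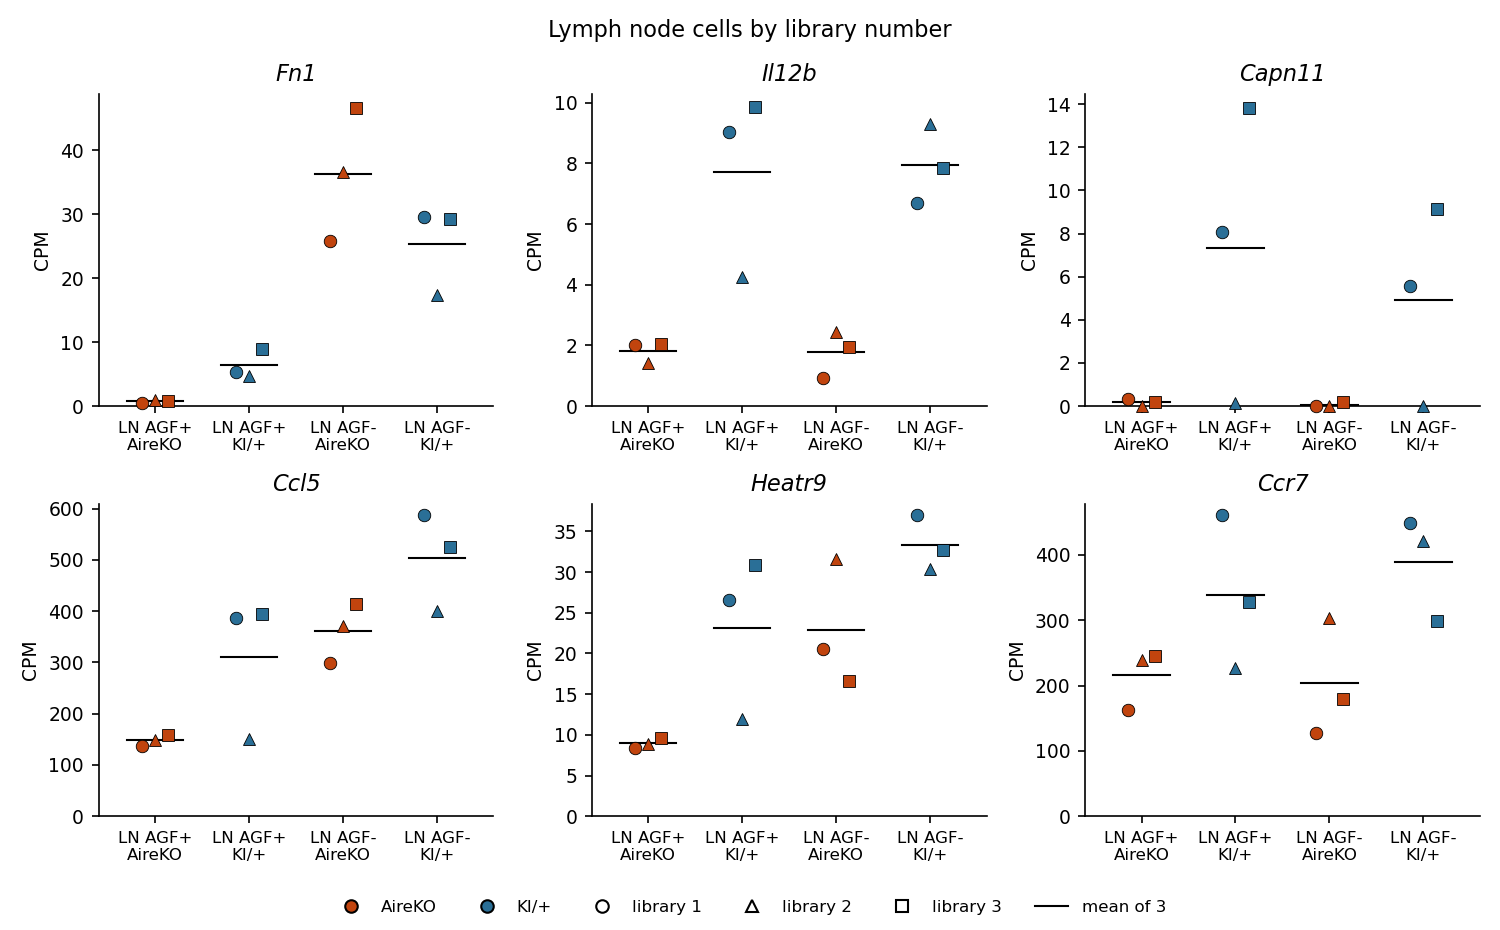
CPM per library (points; symbol by library number) of 6 genes in lymph node (LN) AGF+ and AGF- cells, with the mean of 3 libraries as a line. In AGF+ cells, KI/+ library 2 of Ccl5, Il12b, Capn11 and Heatr9 lies nearer to the AireKO libraries than the other KI/+ libraries do.

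Genes averaging 3 or more in log2 CPM whose groups did not overlap were ranked by unadjusted p. Those with the smallest p in each direction were described next, and none but Aire and Dnmt3l passed adjustment. Genes with overlapping groups, such as Ccl5, were left out of this ranking. Gclc, the catalytic subunit of the enzyme that starts glutathione synthesis, stood at 59.7, 74.3 and 74.2 CPM in AireKO and at 122, 95 and 109 CPM in KI/+ (log2 fold change -0.66 ± 0.15, unadjusted p = 7.24e-04). Heatr9, which lies beside Ccl5 on chromosome 11, stood at 8.39, 8.86 and 9.66 CPM in AireKO and at 26.6, 11.9 and 30.9 CPM in KI/+ (-1.37 ± 0.32, unadjusted p = 7.35e-04). Mir142hg, the host transcript of the blood cell microRNA miR-142, stood at 7.55, 6.04 and 7.81 CPM in AireKO and at 17.6, 11.9 and 13.1 CPM in KI/+ (-1.0 ± 0.24). Only genes without overlap of the groups could be chosen here, so the separation of these 3 is not a result. Over all genes, 5.01% had every AireKO library below every KI/+ library. KI/+ library 2 was the lowest KI/+ library of each of the 3. Asprv1, a protease known from skin, and Klf2, a transcription factor of resting lymphocytes, met the same condition, with log2 fold changes of -1.67 ± 0.41 and -0.86 ± 0.23. Kcnk7, Tas1r3 and Laptm4b complete the lower genes of this ranking, at -1.26, -0.70 and -0.84.

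The higher genes named by the same rule had smaller differences. Beside Dnmt3l they were Pde3b, a phosphodiesterase, with 18.6, 22.2 and 19.1 CPM in AireKO and 13.5, 14.5 and 13.1 CPM in KI/+ (0.53 ± 0.14, unadjusted p = 0.00231), and Knl1, a kinetochore protein, with 7.72, 7.86 and 7.61 CPM in AireKO and 3.64, 6.41 and 2.19 CPM in KI/+ (0.87 ± 0.29). Trmt11, Cyp20a1, Slk, Acadm, Rbm12 and Trim44 lay between 0.30 and 0.57. The mitochondrial ribosomal RNA mt-Rnr2 stood at 5864, 6191 and 6790 CPM in AireKO and at 4144, 5010 and 5027 CPM in KI/+ (0.40 ± 0.13, unadjusted p = 0.0103). Mitochondrially encoded transcripts took 1.47% to 1.61% of counts in AireKO libraries and 0.984% to 1.31% in KI/+ libraries, without overlap; their part in the other differences was not tested. All 7 tested genes of the 13 on the mitochondrial list were positive. At an unadjusted p under 0.05 stood 1, mt-Co1 (0.44), beside 1.19% higher of all genes, and the median was 0.38. That median was 0.19 without KI/+ library 1 and 0.60 without the libraries numbered 2.

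KI/+ library 2 stood apart within its group. Of the 583 genes at an unadjusted p under 0.05, it was the KI/+ library nearest to the AireKO libraries for 459 (78.7%), against 59 for KI/+ library 1 and 65 for KI/+ library 3. These genes were selected from the same values, and the share over all genes was not computed. The axis of largest variance between the 6 libraries held 44.7% of the variance over 10800 genes. On it the KI/+ libraries lay at -26.5, 16.9 and -14.7, and the AireKO libraries at 3.66, 17.6 and 3.05. Without the 4 lymph node libraries numbered 2, 2 genes of 16055 were called (0.0125%) and 911 had an unadjusted p under 0.05 (5.67%); without KI/+ library 2 alone 7 genes were called and 1726 had an unadjusted p under 0.05. With the block and without the libraries numbered 2 the call count was 13 (0.081%), of which 12 were lower in AireKO, among them Ccl5, Zmynd15 and Heatr9. What sets KI/+ library 2 apart was not tested.

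Genes of mature DCs, which express the homing receptor CCR7 after maturation, had mostly negative log2 fold changes in AireKO cells, and none passed adjustment. The list held 32 genes, of which 31 were tested. Of these 28 were negative and 3 positive, with a median log2 fold change of -0.31, against -0.01 over all genes, and 5 were lower at an unadjusted p under 0.05 (Il12b, Ccl5, Zmynd15, Il15ra and Ccr7), beside 2.48% of all genes. The median was -0.14 without KI/+ library 1, -0.18 without AireKO library 1, AireKO library 2 or KI/+ library 3, and -0.43 without KI/+ library 2. Without the libraries numbered 2 it was -0.30, with 8 lower. In AGF- cells the median of the list was -0.60, and in bone marrow AGF+ cells 0.02. The difference between these cells was not tested for the list. In lymph node AGF+ cells the confidence interval lay within 2-fold for 19 of the 31 genes. Most members were negative in some other lists too. The cDC1 markers, described below, had 15 negative and 3 positive and the same median, -0.31. The cDC2 markers had 13 negative and 3 positive, and the RANK and NF-kB pathway 18 and 5. The cell cycle list went the other way, with 9 negative and 18 positive. Ccl5, a chemokine that draws T cells (chr11:83525778-83530518, minus strand), stood at 137, 150 and 158 CPM in AireKO and at 386, 151 and 394 CPM in KI/+. The groups overlapped through KI/+ library 2. Its log2 fold change was -1.08 ± 0.27 (95% interval -1.67 to -0.49, unadjusted p = 0.00146, edgeR adjusted p = 0.967), and without the libraries numbered 2 it was -1.42 ± 0.18 (edgeR adjusted p = 0.0531). Zmynd15, a zinc finger protein, stood at 114, 116 and 92.1 CPM in AireKO and at 302, 123 and 207 CPM in KI/+ (-0.99 ± 0.34, unadjusted p = 0.0112). Ccr7 itself stood at 163, 239 and 246 CPM in AireKO and at 462, 228 and 327 CPM in KI/+, with overlapping groups (-0.67 ± 0.30). Il15ra, the receptor subunit that presents interleukin 15, was chosen after its values were seen; it stood at 133, 147 and 177 CPM in AireKO and at 264, 164 and 282 CPM in KI/+ (-0.65). Other defining members, Fscn1, an actin bundler (-0.23), Relb, an NF-kB subunit (-0.32), and Cd274, the ligand of PD-1 (0.08), had unadjusted p of 0.386, 0.185 and 0.722. The summed level of the list ranged from 7632 to 10394 CPM in AireKO and from 7900 to 12250 CPM in KI/+, with KI/+ library 2 the lowest of its group. In bulk samples, fewer cells of a type and less RNA per cell cannot be told apart.

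Chemokines and their receptors were a list of 25 genes, of which 21 were tested. Of these 15 were negative, with a median of -0.31, and 4 were lower and 1 higher at an unadjusted p under 0.05, beside 2.48% lower and 1.19% higher of all genes. The median was -0.18 without AireKO library 2 or KI/+ library 3 and -0.49 without KI/+ library 2. The confidence interval lay within 2-fold for 3 of the 21 genes. Ccl5, Ccr7, Ccl17, Ccl19 and Ccl22 are on the mature DC list as well. The lower genes Ccl5 and Ccr7 are thus counted in both lists, which are not separate results. Ccl3, an inflammatory chemokine, stood at 1.68, 2.01 and 2.47 CPM in AireKO and at 0.475, 1.07 and 0.438 CPM in KI/+ (1.54). KI/+ libraries 1 and 3 lay at or below what a count of 0 allows there, 0.475 and 0.657 CPM. Cxcr4, a receptor for stromal chemokine, stood at 43.5, 46.9 and 48.7 CPM in AireKO and at 77.4, 52.0 and 61.3 CPM in KI/+ (-0.47 ± 0.16). Costimulatory and checkpoint ligands, 20 of 23 tested, had 1 gene higher, Cd276 (1.11), and 2 lower, Icosl and Ido2 (-0.99), at an unadjusted p under 0.05, and a median of -0.05 that ran from -0.18 without AireKO library 3 to 0.04 without AireKO library 2.

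**Figure D4:**
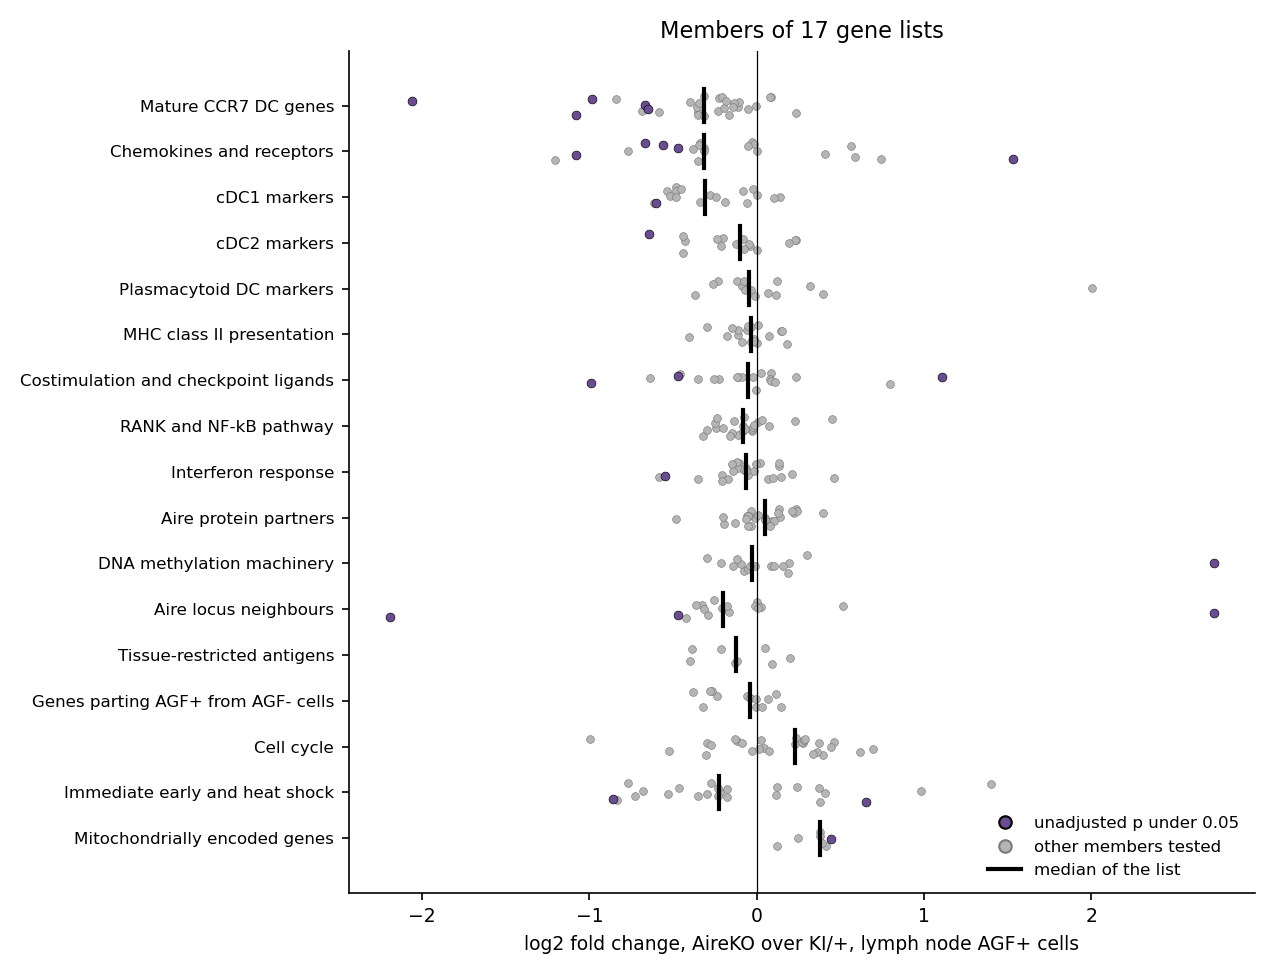
Log2 fold change of AireKO over KI/+ AGF+ cells for the tested members of the gene lists (points), with each list's median (vertical bar); 17 lists are drawn. The median of the mature DC list is at -0.31 and that of the MHC class II list at -0.03.

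Of 19 MHC class II presentation genes, all tested, 0 had an unadjusted p under 0.05, the median was -0.03, and for 18 the 95% interval lay within 2-fold. Cd74, the invariant chain, stood at 2374, 2667 and 2462 CPM in AireKO and at 2700, 2296 and 2512 CPM in KI/+ (-0.02), and H2-Eb1, a class II beta chain, at -0.03. Ciita, which drives class II transcription, stood at 349, 347 and 317 CPM in AireKO and at 612, 344 and 375 CPM in KI/+ (-0.40). The RANK and NF-kB pathway, 23 of 24 tested, had 0 genes at an unadjusted p under 0.05, a median of -0.08 and 22 genes within 2-fold; Tnfrsf11a, the receptor RANK, was at -0.24. Interferon response genes, 25 tested, had 1 lower, Mx1 (-0.55), beside 2.48% lower of all genes, and a median of -0.07. The interval lay within 2-fold for 18 of these 25. The interferon median was -0.21 without KI/+ library 1 and 0.23 without KI/+ library 3, the MHC class II median ran from -0.07 to 0.01 with 1 library left out, and that of the RANK and NF-kB pathway from -0.16 to -0.04.

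No subset marker of DCs was called. The confidence interval lay within 2-fold for 7 of 18 cDC1, 11 of 16 cDC2 and 9 of 16 plasmacytoid DC markers. It did so for 16 of 27 cell cycle genes, 8 of 24 immediate early and heat shock genes and 11 of 14 AGF-parting genes. For the counts that follow, 2.48% of all genes were lower and 1.19% higher at an unadjusted p under 0.05. The 18 cDC1 markers, of the cross-presenting lineage, had a median of -0.31, 15 negative and 1 lower at an unadjusted p under 0.05, Tlr11 (-0.60). Batf3, a factor of that lineage, was at -0.28. The cDC1 median ran from -0.43 without KI/+ library 2 to -0.21 without AireKO library 2. The 16 cDC2 markers had a median of -0.10 and 1 lower, Klf4 (-0.64), with Sirpa at -0.12 and Esam at -0.04. The 16 plasmacytoid DC markers had 0 at that threshold and a median of -0.05. A list of 14 genes that part AGF+ from AGF- cells, drawn from earlier results of these data, had 0 and a median of -0.04. Cell cycle genes, 27 tested, had 0 and a median of 0.23, and Top2a, a topoisomerase of dividing cells, was at 0.40 (unadjusted p = 0.0553). Immediate early and heat shock genes, 24 tested, had 1 higher, Hsph1 (0.66), and 1 lower, Klf2, and a median of -0.22. With 1 library left out, the cell cycle median was -0.01 without AireKO library 3 and 0.11 without KI/+ library 2, and the immediate early and heat shock median was 0.05 without AireKO library 1 and -0.34 without AireKO library 3. Without AireKO library 3 the medians of the cDC2, plasmacytoid DC and AGF-parting lists were -0.05, 0.06 and -0.19, and without AireKO library 1 those of the last 2 were -0.14 and 0.02.

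Markers of other cells that the gate could hold did not pass adjustment, nor did markers of epithelium and stroma, cells without CD45 that the gate removes. T and NK cell genes, 20 tested, had 0 at an unadjusted p under 0.05 and a median of 0.29, with summed levels of 172 to 273 CPM in AireKO and 195 to 268 CPM in KI/+. B cell genes, 15 tested, had 1 higher (Fcrla, 1.03), beside 1.19% of all genes at an unadjusted p under 0.05. Their median was 0.07, with sums of 237 to 270 CPM in AireKO and 208 to 266 CPM in KI/+. Monocyte and macrophage genes, 21 tested, had 0 and a median of 0.01. Their sums were 370 to 801 CPM in AireKO and 505 to 636 CPM in KI/+. The confidence interval lay within 2-fold for 1 of the 20 T and NK cell genes. It did so for 4 of the 15 B cell genes and 5 of the 21 monocyte and macrophage genes. For the other genes of these lists a difference of 2-fold or more is not excluded. With 1 library left out the T and NK cell median ran from -0.07 without AireKO library 3 to 0.80 without KI/+ library 3, and it was 0.07 with the block. The B cell median ran from -0.14 without KI/+ library 1 to 0.20 without KI/+ library 2. The monocyte and macrophage median was -0.45 without AireKO library 1, 0.40 without AireKO library 3 and 0.33 without the libraries numbered 2. The highest of the monocyte and macrophage sums belongs to AireKO library 1, where Apoe, a lipid carrier of macrophages, stood at 133 CPM, against 19.9 to 54.9 CPM in KI/+. Of the 12 eosinophil, basophil and mast cell genes, 3 were tested and 7 had no count in the 6 libraries; of 12 neutrophil genes 1 was tested, and S100a8 and S100a9 had no count. Epithelial genes, 4 of 12 tested, had a median of -0.35, and lymph node stroma genes, 6 of 15 tested, had a median of 0.08 and 1 higher, Cxcl13 (2.55). The confidence interval lay within 2-fold for 1 of the 4 epithelial and 1 of the 6 stroma genes. The epithelial list shares Epcam with the cDC2 markers, so it does not read out cells without CD45 alone. The stroma median was 0.43 without KI/+ library 2 and 0.64 without the libraries numbered 2. The part of these levels in the differences above was not tested.

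What size of difference these libraries leave room for is given by the 95% intervals of the fit without the replicate block. For 11852 of 15884 genes (74.6%) the interval lay within 2-fold in either direction. Among genes with an average log2 CPM of at least 3 it did so for 92.6%, and among those below 3 for 34.0%. For the other 4032 of the 15884 genes the interval reached past 2-fold, or could not be computed (20 genes). In simulated counts with this layout, 59 of 100 genes changed 2-fold and 98 of 100 changed 4-fold were recovered. The changed genes were drawn only from those above a floor of mean CPM, so these rates do not cover lower genes. Simulated libraries were drawn independently, without the shared deviation of same-numbered libraries.

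The genotype difference was then set beside that in lymph node AGF- cells, which share no library with the AGF+ cells but share replicate numbers. In AGF- cells Aire stood at 10.5, 14.2 and 13.3 CPM in AireKO and at 14.9, 14.2 and 14 CPM in KI/+, and its log2 fold change was -0.19 ± 0.16 (unadjusted p = 0.255). The difference between the sorts was itself called for Aire (-2.0 ± 0.22, edgeR adjusted p = 0.00451), the only gene of 15884 (0.0063%), with 261 at an unadjusted p under 0.05 (1.64%). As the sort selects on a reporter that the Aire locus drives, this difference in Aire cannot be told apart from the gate. Dnmt3l stood at 10.3, 16.5 and 13.8 CPM in AireKO AGF- cells and at 0.445, 0 and 0.636 CPM in KI/+ AGF- cells, and rose there as well, the only gene called in these cells (0.0063%, edgeR adjusted p = 1.02e-04). Its fitted log2 fold change of 5.16 ± 0.42 rests on 5 KI/+ counts in all, and the difference between the sorts did not pass (-2.42 ± 0.55, edgeR adjusted p = 1). Il12b had 0.937, 2.43 and 1.95 CPM in AireKO AGF- cells and 6.68, 9.31 and 7.85 CPM in KI/+ AGF- cells (-2.16 ± 0.39, edgeR adjusted p = 0.575), and its difference between the sorts was 0.10 ± 0.56. Fn1 stood at 25.9, 36.6 and 46.6 CPM in AireKO and 29.6, 17.4 and 29.3 CPM in KI/+ AGF- cells (0.50 ± 0.26), and its difference between the sorts was -3.51 ± 0.53 with an edgeR adjusted p of 0.0922, and 0.0292 with the replicate block, where Aire and Fn1 were the 2 genes called (0.0126%).

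**Figure D5:**
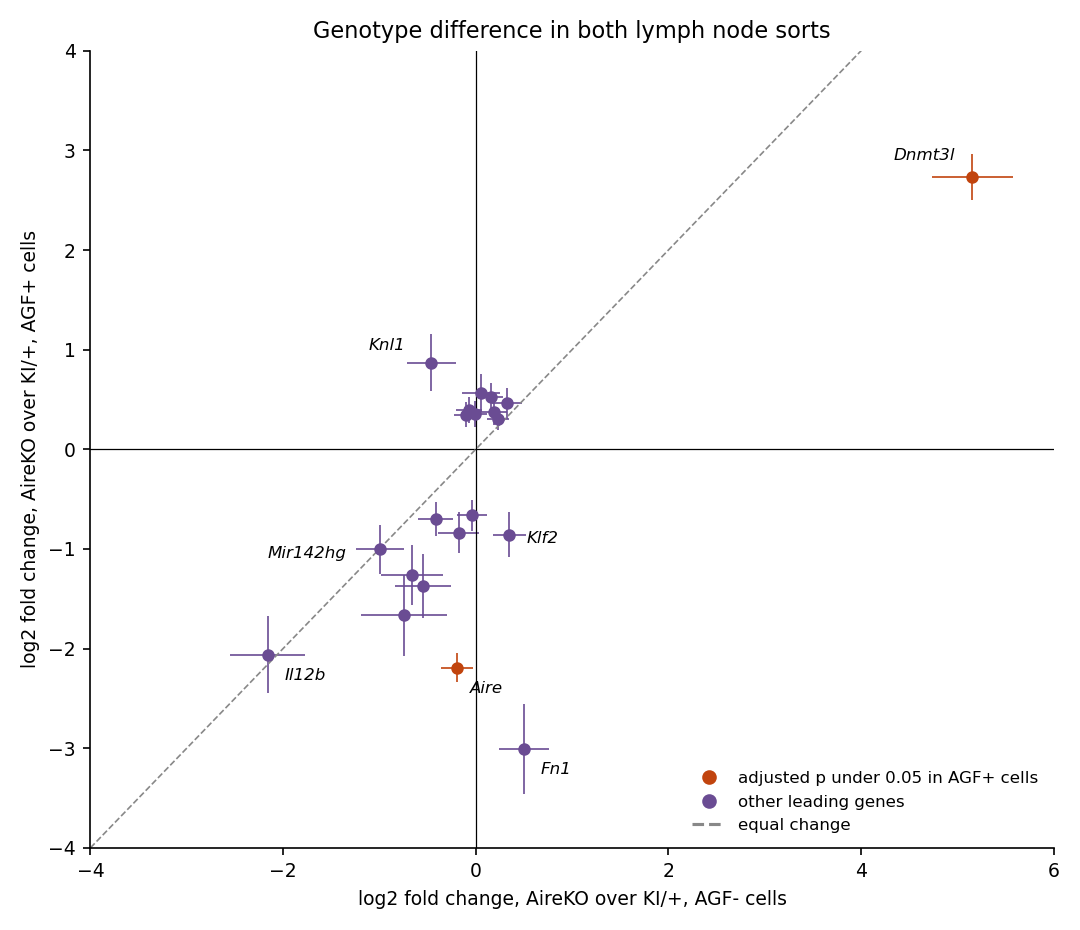
Log2 fold change of AireKO over KI/+ in AGF+ cells (vertical) against that in AGF- cells (horizontal) for 21 named genes, with SE as bars. Il12b and Mir142hg lie near the line of equal change; Aire, Fn1 and Dnmt3l lie below it.

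Of the 583 genes at an unadjusted p under 0.05 in AGF+ cells, 473 (81.1%) had the same sign in AGF- cells, against 62.6% of all genes. At an unadjusted p under 0.05 with the same sign were 116 of the 394 lower genes (29.4%) and 7 of the 189 higher genes (3.70%). Over all genes the share was 4.92% with both directions pooled, which is not the share of either direction alone. In AGF- cells as a whole 949 genes had an unadjusted p under 0.05 (5.97%), 307 higher (1.93%) and 642 lower (4.04%). Same-numbered AGF+ and AGF- libraries of a genotype deviated together from their group means (r = 0.234 to 0.561 across 10749 genes, which are not independent), so the sorts are not independent samples. In bone marrow AGF+ cells, 229 of the 523 genes tested there (43.8%) had the same sign, against 47.8% of all genes. There 2 genes were called (0.0129%), Aire with a log2 fold change of -2.81 ± 0.22 (edgeR adjusted p = 3.54e-04) and Dnmt3l with 3.63 ± 0.24 (edgeR adjusted p = 1.49e-04). The differences between the tissues, 0.64 ± 0.26 for Aire and -0.88 ± 0.34 for Dnmt3l, did not pass, with 0 genes called (0.0%) by edgeR with or without the block and by DESeq2, and 456 at an unadjusted p under 0.05 (2.64%).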

How the data were processed

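The authors counted reads per gene, and the deposited table of raw counts for 55471 genes in 21 libraries was used here; the deposited normalized table was not. Per the submitters' processing notes, reads were mapped to mm10 (GRCm38) and counted with tools that include STAR 2.7.3a and HTSeq 0.11.2. Annotation release, strandedness and multi-mapped reads are not stated there. Per the labels, libraries came from 1 ng of total RNA and were read paired-end at 150 bp. GENCODE vM21 named all but 327 identifiers, which hold 0.0139% of counts.

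The 12 lymph node libraries entered 1 fit with edgeR 4.0.16 in R 4.3.3, using TMM scaling, filterByExpr and the quasi-likelihood F test with Benjamini-Hochberg adjustment; the 9 bone marrow libraries had their own, and the difference between tissues used all 21. Alternatives were DESeq2 1.42.0, limma 3.58.1 (voom with sample weights), the replicate block, other filters, scalings and sets of libraries, and each library left out. CPM used effective sizes over 21 libraries, and RPKM used union exon lengths. On simulated counts, drawn without pairing of libraries, the test made 7 false calls in 15884 genes. Same-numbered libraries of the genotypes deviated together (r = 0.196, 0.434 and 0.325 over 10749 genes), so the number was used as a block in alternatives. The main fit, with its calls, standard errors and intervals, had no block and leaves this pairing out. What the numbers stand for is not labelled. The highest r, 0.434, belongs to the libraries that went against their male label. The part of sex in these values was not tested.

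Members and lists were chosen with earlier results of these data known. Named genes are Aire, the calls of the edgeR, block, DESeq2 and voom fits (up to 15 each), the 10 smallest p in each direction among genes averaging 3 or more in log2 CPM with separate groups (predicted genes, pseudogenes and receptor segments left out), and the 3 smallest p and 2 highest RPKM of each list. All members of the Aire locus and DNA methylation lists could be named. 1 list is not reported here. Python 3.11.15 with pandas 2.3.3 and matplotlib 3.10.9 made tables and figures.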

Additional observations from a re-analysis of the deposited data

Results flagged for a closer look

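The genotype difference in Aire transcripts was larger in AGF+ than in AGF- cells of lymph nodes. In AGF+ cells Aire stood at 22.8 to 26.6 CPM in AireKO and at 99.0 to 132 CPM in KI/+, and in AGF- cells at 10.5 to 14.2 CPM in AireKO and at 14 to 14.9 CPM in KI/+. The genotype difference in AGF+ cells minus that in AGF- cells was -2.0 ± 0.22 on the log2 scale (95% interval -2.47 to -1.53, edgeR adjusted p = 0.00451), which marked it for a closer look. The sort reads out the reporter that the Aire locus drives, so AGF- cells were selected for a low reporter. The difference between the sorts cannot be told apart from that selection.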

How the results depend on the processing

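Over the 20 alternatives run for each, Aire stayed between -2.33 and -2.08 and Dnmt3l between 2.61 and 2.83 in log2 fold change, with adjusted p of at most 0.00316 and 0.00338; with 1 library left out the ranges were -2.29 to -2.08 and 2.62 to 2.83. The number of genes called, 2, was 4 with DESeq2, 4 with the replicate block in 12 libraries, 4 with the block in the 6 libraries alone, 9 with the block in DESeq2, 13 with the block and without the libraries numbered 2, and 97 of 32883 without a filter on low counts, where the spread of every gene was set to the trend. Leaving out 1 library gave 2 to 7 calls, with 7 without KI/+ replicate 2. The number of genes at an unadjusted p under 0.05, 583, was 1098 with the block, 1449 with the block in 6 libraries, 931 in 6 libraries, 911 without the libraries numbered 2, 1860 with the block and without them, 2474 with voom, 2123 with voom and the block, and 1358 without a filter; leaving out 1 library gave 291 to 1726. Genotype by sort had 1 call, and 2 with DESeq2 or the block; genotype by tissue had 0 in each. In the edgeR fit of 12 libraries the replicate block added Fn1 and Capn11 in AGF+ cells and Fn1 between sorts, and changed no other call; in DESeq2, in the 6 libraries and without the libraries numbered 2 it added others, as these counts show. The alternatives without the libraries numbered 2, and the block in DESeq2 and in voom, were added after the data were examined. The cause of the moved counts was not tested. Of 398 values of 20 named genes, 371 kept their side of the threshold, 27 newly passed it and 0 turned their sign, and 28 of 260 list medians moved. Depth limits low genes: 1 CPM is 4.56 to 6.56 counts.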

Other observations

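Chrna2, a subunit of nicotinic acetylcholine receptors, was chosen after its values were seen. It had 0.671, 0.201 and 0.411 CPM in AireKO AGF+ cells and 3.48, 1.37 and 6.57 CPM in KI/+ AGF+ cells, without overlap (log2 fold change -3.01 ± 0.60, edgeR adjusted p = 0.638). AireKO libraries 2 and 3 lay below what a count of 0 allows there, 0.604 and 0.617 CPM, so the fold change rests on very few counts. The heat shock gene Hspa1b had 53.9, 82.6 and 138 CPM in AireKO and 44.5, 43.0 and 49.1 CPM in KI/+ AGF+ cells, also without overlap (unadjusted p = 0.0511).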
